A study of Mus musculus with 28 samples.

Results

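Tetraspanins are small proteins that cross the membrane repeatedly and bind other surface proteins. Their transcripts were followed across polyclonal and monoclonal mIMCD-3 cells, a mouse kidney epithelial line derived from inner medullary collecting duct. The members were the genes whose symbol is Tspan with a number, together with Cd9, Cd37, Cd53, Cd63, Cd81, Cd82 and Cd151, which gave 27 of the 45706 genes measured. All cells were unedited mIMCD-3 wild-type cells, and RNA was taken from confluent cultures. The 28 RNA sequencing libraries comprised 4 of polyclonal WT cells, the line as purchased, 4 of monoclonal WT5, which was grown from a single sorted polyclonal cell, and 4 of each of 5 subclones, grown from single sorted WT5 cells. WT5 and every subclone are thus 1 clone each, and the libraries of a group are replicates of that clone. The methods of the study call them biological replicates and a legend calls them technical, so p-values measure only the spread between these libraries.

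Tetraspanins gather integrins, proteases and receptors into membrane microdomains, and several are cargo of late endosomes and of the extracellular vesicles that cells release. In epithelia, Cd151 holds laminin-binding integrins, Cd9 and Cd81 bind immunoglobulin-family partners, and Cd63 marks late endosomes, lysosomes and exosomes. Members of the TspanC8 subgroup escort the surface protease ADAM10 out of the endoplasmic reticulum and direct it to its substrates, whereas Cd37, Cd53 and Tspan32 are known from leukocytes.

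Stretches upstream of the RefSeq start are shown for 4 of the members that passed a 2-fold rule between polyclonal WT cells and WT5, chosen after their values were seen, and for Cd63, the most abundant member, which did not pass it. Each stretch covers 180 bases and runs 5′ to 3′ along the gene, from 220 to 41 bases before the RefSeq start on GRCm38.p6, and capitals mark CG dinucleotides. The positions are chr10:115817064-115817243 on the plus strand for Tspan8, chr4:116167639-116167818 on the minus strand for Tspan1, chrX:133898470-133898649 on the minus strand for Tspan6, chr10:62231259-62231438 on the minus strand for Tspan15 and chr10:128909125-128909304 on the plus strand for Cd63. In GENCODE, from which gene positions are given elsewhere, Tspan8 and Cd63 begin further upstream. Their stretches therefore lie inside the GENCODE gene, from 232 and 8136 bases past its start, and whether in an exon or an intron was not checked. The other 3 stretches lie before the GENCODE start.
Tspan8: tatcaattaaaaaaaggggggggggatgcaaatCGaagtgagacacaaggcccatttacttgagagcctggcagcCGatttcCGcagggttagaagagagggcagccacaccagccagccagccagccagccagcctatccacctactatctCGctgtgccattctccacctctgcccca
Tspan1: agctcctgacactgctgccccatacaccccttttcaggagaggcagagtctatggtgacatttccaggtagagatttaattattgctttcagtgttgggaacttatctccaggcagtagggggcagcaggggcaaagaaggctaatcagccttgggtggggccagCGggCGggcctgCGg
Tspan6: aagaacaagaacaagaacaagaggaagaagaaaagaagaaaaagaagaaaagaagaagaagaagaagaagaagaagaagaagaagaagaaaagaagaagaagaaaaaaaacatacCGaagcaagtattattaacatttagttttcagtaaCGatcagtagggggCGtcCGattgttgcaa
Tspan15: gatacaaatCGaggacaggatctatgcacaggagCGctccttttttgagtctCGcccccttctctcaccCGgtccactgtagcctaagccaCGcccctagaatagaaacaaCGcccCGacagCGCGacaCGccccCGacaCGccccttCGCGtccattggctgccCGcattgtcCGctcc
Cd63: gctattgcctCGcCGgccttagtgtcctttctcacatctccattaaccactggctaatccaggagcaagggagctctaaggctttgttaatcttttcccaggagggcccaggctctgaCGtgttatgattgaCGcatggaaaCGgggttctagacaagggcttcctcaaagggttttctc

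Of the 27 members, 26 had a RefSeq promoter sequence, with Tspan18 as the exception. Over the 250 bases before the start, the members held a median of 12.5 CG dinucleotides, against 6 over 32851 mouse promoters. Tspan8, Tspan1 and Tspan6 held 4, 3 and 5 in that window, whereas Tspan15 held 23, Tspan7 19 and Tspan17 22. At most 5 CG dinucleotides were found in 8 of the 26 members and in 49.6% of all promoters. The letters TATAAA, read on both strands, occurred in the window of 1 member, Tspan12, and in 12.4% of all promoters. None of the motifs searched contains another. CCAAT occurred in 7 members against 33.8%, and GGGCGG in 14 members against 32.7%. These are counts of letters and do not show that a factor binds there.

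Tetraspanin transcripts were abundant in every line. The authors gave values as TPM, a share of all transcripts that is scaled by transcript length, so levels of different genes can be compared. Summed over the members, 2491.11 to 3112.84 TPM were found per library, and 15 to 18 members reached 10 TPM. Cd63 was the most abundant member in all 28 libraries, at 874.89 to 1331.75 TPM, and held 35.1% to 46.1% of the summed level. Behind it, Cd9 lay at 153.83 to 312.37 TPM, Cd81 at 140.01 to 244.85 TPM, Cd82 at 65.15 to 179.68 TPM and Cd151 at 73.68 to 186.46 TPM. Tspan3, Tspan5, Tspan31, Tspan4, Tspan33, Tspan9, Tspan12, Tspan14 and Tspan13 had medians over all libraries from 98.51 down to 38.67 TPM. Tspan8, a member known from carcinomas and from exosomes, had a median of 251.34 TPM but lay at 8.72 to 11.75 TPM in polyclonal WT cells. At the low end stood Tspan6, Tspan18, Tspan15, Tspan17, Tspan7 and Tspan1, whose medians over all libraries ran from 21.9 to 0.22 TPM. In polyclonal WT cells, however, Tspan6 lay at 72.75 to 80.81 TPM and Tspan1 at 14.65 to 18.01 TPM, whereas Tspan18 was at most at 0.05 TPM.

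**Figure D1:**
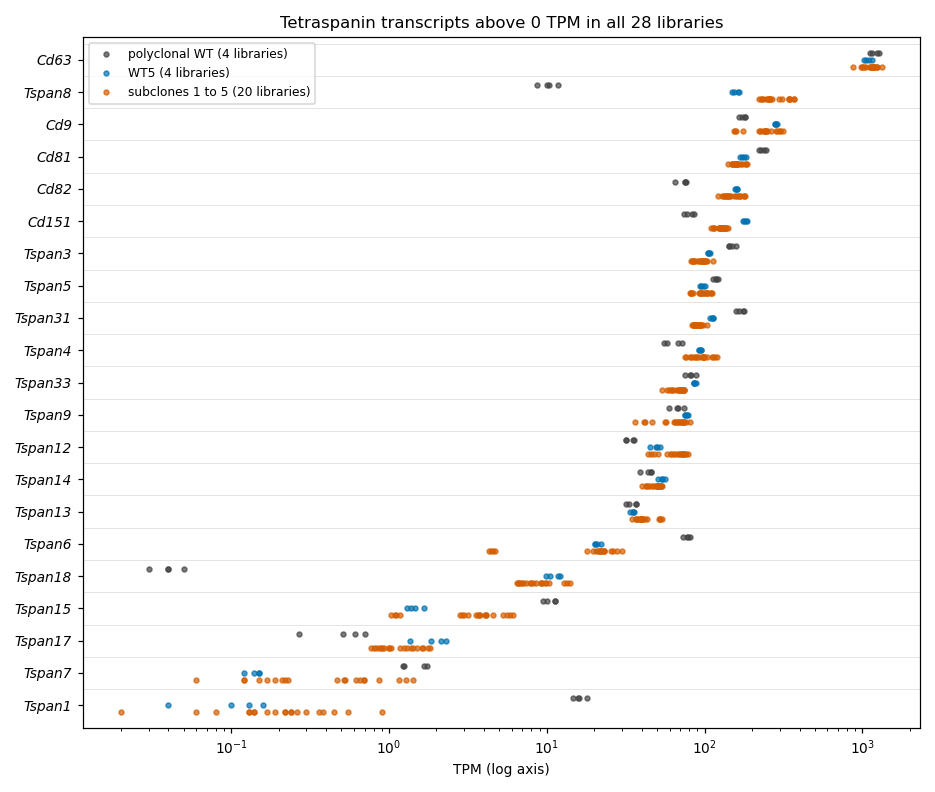
TPM on a log axis for the 21 tetraspanins above 0 in all 28 libraries, with 1 point per library, ordered by median. Cd63 lies highest in every line. The polyclonal WT libraries stand apart from the rest for 14 members, Tspan18, Tspan8, Tspan1 and Tspan6 among them, a count that was not set against all genes.

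The members known from blood cells were nearly silent, as were Tspan2, Tspan10 and Tspan11. Cd53 and Tspan11 were listed at 0 in all 28 libraries, Tspan10 was at 0.03 TPM in a single polyclonal library and at 0 in the other 27, and Tspan32 was at 0 in 19 libraries and reached 0.1 TPM. Cd37 was at 0 in 2 libraries and at 0.45 TPM at most, and Tspan2, at 0 in 1 library, reached 0.48 TPM. Among 8 leukocyte markers, Cd3e and Ms4a1 were at 0 in every library, and the list summed to 8.06 to 8.94 TPM in polyclonal WT cells, 2.7 to 4.16 TPM in WT5 and 1.75 to 5.51 TPM in the subclones. Read depth is not kept in TPM, so a value of 0 sets no upper limit on expression.

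The renal epithelial markers were present in part. Krt8 and Krt18, the simple epithelial keratins, averaged 359.94 and 636.88 TPM in polyclonal WT cells and 1005.39 and 957.18 TPM in WT5. Aqp2, the water channel that defines collecting duct principal cells, was at 0 in all 28 libraries. Of 14 renal epithelial markers, 11 averaged at least 1 TPM in polyclonal WT cells and 8 in WT5 and in each subclone. Of 6 fibroblast markers, Col1a2 and Pdgfra were at 0 in WT5, and the list summed to 1.91 to 2.78 TPM in polyclonal WT cells, 12.97 to 19.96 TPM in WT5 and 2.95 to 7.8 TPM in the subclones. Most of it was Vim, and its part in the differences between lines was not tested. Between 18681 and 19272 genes were above 0 in polyclonal WT libraries and 16270 to 17004 in all others. Single-end reads of 50 bp were made for polyclonal WT cells and paired-end reads of 150 bp, on another occasion, for WT5, so sequencing and line cannot be told apart. In bulk RNA, fewer cells of a type and less RNA per cell cannot be told apart.

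Between WT5 and polyclonal WT cells, which asks how far a single clone departs from the mixed line it came from, tetraspanins moved in both directions. Tspan18 and Tspan8 were far higher in WT5, Tspan1, Tspan7, Tspan15 and Tspan6 were lower, and Tspan17, Cd151 and Cd82 were moderately higher. A gene was tested when above 0 in all 8 libraries, which held for 23 members and not for Cd53, Tspan10, Tspan11 and Tspan32. On log2(TPM) scaled to z-scores within each library, where a difference of 1 corresponds to 8.56-fold, 5 of 23 members passed an adjusted p below 0.01 and a difference above 1, against 5.43% of all 13723 genes tested. Of these, 2 were higher in WT5, against 2.31% of all genes, and 3 lower, against 3.12%. With a 2-fold rule on unscaled log2(TPM) at the same adjusted p, 9 members passed, against 25.5% of all genes. These were 5 higher members, against 17.0%, and 4 lower members, against 8.55%. The libraries of the lines did not overlap for 18 of the 23 members, against 72.3% of all genes.

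**Figure D2:**
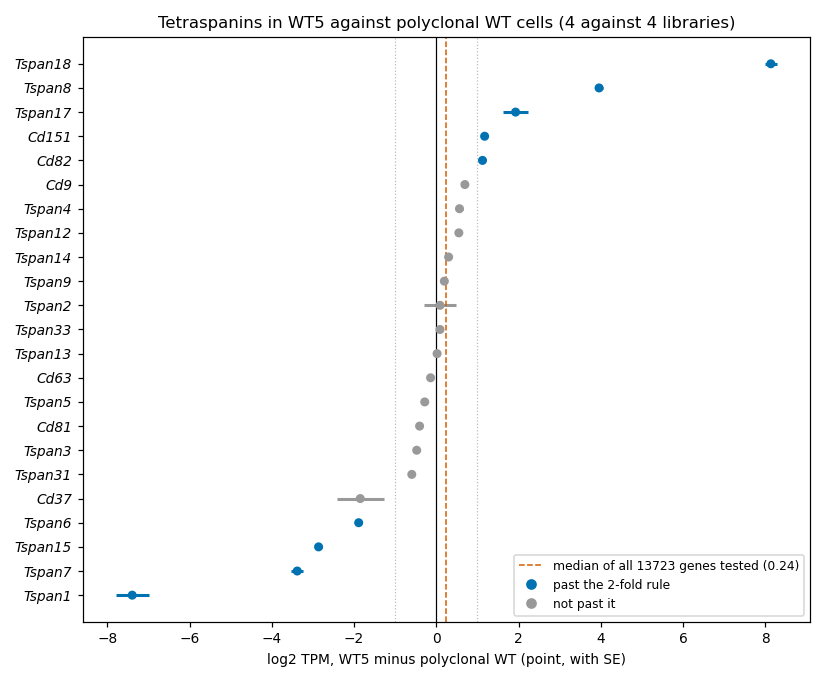
Difference in log2 TPM, WT5 minus polyclonal WT cells, for the 23 tetraspanins tested, with the SE as a line and the median of all genes as a dashed line at 0.24. Tspan18 (8.13) and Tspan1 (-7.39) lie at the ends, and 9 members are past the 2-fold rule.

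Tspan18, known from endothelium and as a partner of the calcium channel Orai1, showed the largest increase of the family. It was at 0.04, 0.05, 0.04 and 0.03 TPM in polyclonal WT cells and at 11.72, 9.9, 12.2 and 10.49 TPM in WT5. Every WT5 library was above every polyclonal library, and the polyclonal values were close to 0.01 TPM, the lowest value given above 0. The difference was 8.13 ± 0.15 (SE) on log2 TPM (adjusted p = 9.11e-09). The endothelial markers Cdh5 and Kdr were at 0 in all libraries of both lines, and the 4 endothelial markers summed to at most 0.29 TPM. Orai1 averaged 19.6 TPM in polyclonal WT cells and 31.1 TPM in WT5. Tspan18 lies at chr2:93201760-93334505, and Trp53i11, whose start is 80.6 kb from its midpoint, was higher in WT5 too, from 0.08 to 0.6 TPM in polyclonal WT cells to 49.69 to 55.41 TPM in WT5. The median difference of 30 genes within 2 Mb of Tspan18 was 0.70 on the log2 scale. Cd82, which lies in the same window, is one of them.

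Tspan8 was at 10.39, 8.72, 11.75 and 9.99 TPM in polyclonal WT cells. In WT5 it was at 149.63, 165.69, 152.99 and 162.47 TPM, a level like that of Cd82 and below those of Cd63 and Cd9. The lines did not overlap, and the log2 difference was 3.96 ± 0.09 (SE; adjusted p = 2.15e-08). The 18 genes tested within 2 Mb of Tspan8 had a median difference of -0.02 on the log2 scale and ranged from -1.86 to 0.71. None of them reached the difference of Tspan8, whose RefSeq promoter window held 4 CG dinucleotides.

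Tspan1, an epithelial member, moved the other way and was close to the lowest listed values in WT5. It was at 15.8, 15.95, 18.01 and 14.65 TPM in polyclonal WT cells and at 0.13, 0.1, 0.04 and 0.16 TPM in WT5. No library of either line came near the other line. The log2 difference was -7.39 ± 0.40 (SE; adjusted p = 1.47e-06). Over 54 genes within 2 Mb of Tspan1, the median was 0.13, and the lowest was -3.15.

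Tspan7 and Tspan6, both on the X chromosome, were lower in WT5 as well. Tspan7, known from neurons and from X-linked intellectual disability, was at 1.66, 1.75, 1.23 and 1.25 TPM in polyclonal WT cells and at 0.15, 0.14, 0.15 and 0.12 TPM in WT5. Tspan6, a member that dampens RIG-I-like receptor signalling, was at 80.81, 72.75, 77.57 and 77.95 TPM in polyclonal WT cells and at 22.2, 20.82, 20.23 and 20.26 TPM in WT5. Both genes kept the lines apart, Tspan7 near the low end of the scale and Tspan6 at a level well above it. The log2 differences were -3.38 ± 0.14 (SE) for Tspan7 and -1.89 ± 0.05 (SE) for Tspan6, with adjusted p of 3.94e-07 and 4.95e-08. On the z-score scale, Tspan6 differed by -0.68 and stayed within the limit of 1.

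**Figure D3:**
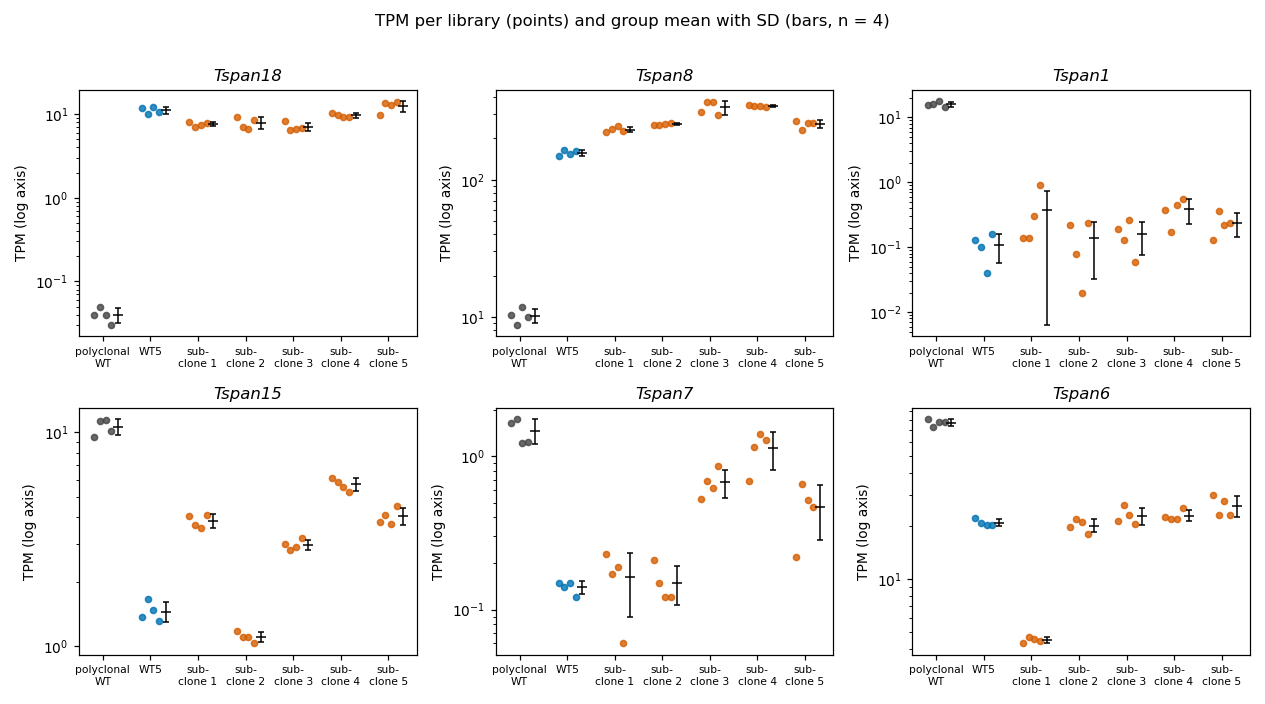
TPM on a log axis in each library for 6 members, by line, with the group mean and SD (n = 4) beside the points. Polyclonal WT libraries stand apart from WT5 in all 6 panels, subclone 1 is lowest for Tspan6, and subclone 4 is highest among the subclones for Tspan15.

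The TspanC8 members, which sort ADAM10, did not share a direction. Tspan15, which directs ADAM10 to cadherins, was at 9.49, 11.29, 11.35 and 10.09 TPM in polyclonal WT cells and at 1.37, 1.66, 1.47 and 1.31 TPM in WT5. Its lines were apart, with a log2 difference of -2.86 ± 0.09 (SE; adjusted p = 1.17e-07). Its z-score difference of -1.001 lay just past the limit, and when any library other than polyclonal replicate 1 was left out it lay between -0.999 and -0.963, within the limit. Tspan17 went the other way, from 0.7, 0.27, 0.61 and 0.51 TPM to 2.29, 1.85, 1.36 and 2.13 TPM, again without overlap, and differed by 1.93 ± 0.31 (SE; adjusted p = 0.000678). The abundant TspanC8 members, Tspan5, Tspan14 and Tspan33, differed by -0.28, 0.30 and 0.09 on the log2 scale, none past 2-fold, and Tspan10 was not tested. Adam10 itself averaged 44.1 TPM in polyclonal WT cells and 48.1 TPM in WT5.

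Among members that hold integrins and receptors at the surface, Cd151 and Cd82 passed the 2-fold rule. Cd151 was at 73.68, 83.56, 85.91 and 77.67 TPM in polyclonal WT cells and at 186.46, 176.85, 176.13 and 183.27 TPM in WT5. Cd82, also called KAI1 and known as a suppressor of metastasis, was at 65.15, 75.22, 76.22 and 75.2 TPM in polyclonal WT cells and at 158.24, 154.98, 161.49 and 159.28 TPM in WT5. All WT5 libraries were above all polyclonal libraries for both genes. The log2 differences were 1.17 ± 0.06 (SE) for Cd151 and 1.12 ± 0.06 (SE) for Cd82, with adjusted p of 9.35e-07 and 1.25e-06. All genes tested were shifted by a median of 0.24 on this scale. Relative to that shift, Cd151 differed by 0.93 and Cd82 by 0.88, less than 2-fold. Cd9, the fusion and vesicle protein, was at 172.68, 179.6, 180.92 and 165.78 TPM against 281.88, 280.51, 280.05 and 287.51 TPM, apart between lines at a log2 difference of 0.69 ± 0.04 (SE; adjusted p = 2.71e-06). Cd81, its close partner, was lower in WT5, by -0.41 ± 0.05 (SE; adjusted p = 0.000167).

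Cd63 itself differed by -0.14 ± 0.06 (SE; adjusted p = 0.0676), and its libraries overlapped between lines. This value depends on how reads are shared with a copy, since 9.03% of the 50-base stretches of its longest transcript occur in other genes, most of them in the pseudogene Cd63-ps. Cd63-ps was at 139.94 to 176.61 TPM in polyclonal WT cells, 3.18 to 4.7 TPM in WT5 and 5.84 to 10.89 TPM in the subclones. Summed with it, Cd63 reached 1257.33 to 1440.34 TPM in polyclonal WT cells and 1028.29 to 1160.37 TPM in WT5, without overlap. That sum differed by -0.32 on the log2 scale, with a two-sided exact permutation p = 0.0286, the smallest that 70 assignments of 4 against 4 libraries allow. For no other member did shared stretches exceed 1.19%.

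None of the remaining members passed the 2-fold rule. Tspan4, known from migrasomes, and Tspan12, the co-receptor of Fzd4 in Norrin signalling, were higher in WT5 by 0.56 ± 0.09 and 0.55 ± 0.07 (SE) on the log2 scale, with adjusted p of 0.000589 and 0.000118. Tspan31 and Tspan3 were lower, with differences of -0.60 and -0.48 on that scale and adjusted p of 1.18e-05 and 2.97e-05. Tspan31 overlaps Cdk4 on the opposite strand, which was at 474.67 to 1201.54 TPM, Tspan4 overlaps Chid1 at 9.97 to 25.46 TPM, and Cd37, at 0.45 TPM at most, overlaps Tead2 at 71.44 to 156.7 TPM. Strand use in counting was not stated, so these members are uncertain. Tspan9 and Tspan13 differed by 0.19 and 0.02, and the low Cd37 by -1.85 ± 0.57 (SE; adjusted p = 0.0189). Cd37 was at 0.45, 0.43, 0.08 and 0.21 TPM in polyclonal WT cells and at 0.05, 0.11, 0.05 and 0.07 TPM in WT5, so its lines overlapped. The summed leukocyte markers were higher in polyclonal WT cells too, and their part in the Cd37 values was not tested. Over the 23 members the median difference was 0.09 and the median size of a difference 0.60, against 0.24 and 0.57 over all genes tested.

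The genes that work with tetraspanins were read from lists by role, under the 2-fold rule, which 17.0% of all genes passed as higher and 8.55% as lower. Of 11 immunoglobulin-family and other surface partners, 6 were higher in WT5 and 0 lower. These were Igsf3 (3.07), Hbegf (2.20), Cd44 (2.16), Met (1.64), Egfr (1.48) and Ptgfrn (1.37), each given as log2 difference. The median over that list was 1.37, against 0.24 over all genes. Of 10 integrin chains, 1 was higher, the laminin receptor chain Itga6 (1.54), and 1 lower, Itga7 (-2.48). In the ADAM10 list of 10 genes 3 were higher, the substrates Cdh2 (3.30), Notch3 (2.78) and Notch1 (1.11). Fzd4, the receptor that Tspan12 serves, was higher by 2.15, with 1 of 3 tested genes of its list passing, and Flot1 (1.48) was the only one to pass of 16 genes for vesicle formation and release. Counting Upk1a and Rom1 with these lists, 13 of 52 genes passed the 2-fold rule in either direction, near the background of 25.5% of all genes. With the z-score rule in limma, 0 of the 52 passed, against 5.43% of all genes, and 45 had an unadjusted p below 0.05 on that scale, against 77.1%. Of the tetraspanins that carry other names, Upk1a and Rom1 averaged 5.87 and 3.99 TPM in polyclonal WT cells and 5.05 and 6.78 TPM in WT5, and neither passed, whereas Upk1b and Prph2 were at or near 0.

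The comparison of subclones with WT5 asks how far these levels differ after a second round of single-cell sorting. The paper states that the subclones were expanded for weeks before RNA was taken, so sorting and time in culture cannot be told apart. The comparison was made over 21 members above 0 in all 24 libraries, which leaves out Cd37 and Tspan2 as well. With the z-score rule, 0 members passed in any subclone, against 0.152%, 0.144%, 0.173%, 0.202% and 0.173% of all 13860 genes for subclones 1 to 5 in order, and the unequal-variance test likewise gave 0. Whatever the size of the difference, an unadjusted limma p below 0.05 on that scale was found for 14, 11, 12, 16 and 14 of the 21 members in the same order, against 51.0%, 51.5%, 46.2%, 59.0% and 49.1% of all genes. With the 2-fold rule, 2 members passed in subclone 1, against 3.17% of all genes, 0 in subclone 2 against 2.69%, where the unequal-variance test also gave 0 and 11 members had an unadjusted p below 0.05, against 48.8%, and 3 in subclone 3 against 3.61%. In subclone 4, 3 members passed, against 5.14%, and in subclone 5 it was 2, against 3.45%. The members that passed were Tspan15, Tspan7, Tspan8 and Tspan6. All of them had also passed the 2-fold rule between WT5 and polyclonal WT cells, as had 25.5% of all genes tested there. That comparison uses the same WT5 libraries, so passing in both is not independent. The 5 comparisons share the WT5 libraries, and WT5 and the subclones stand in separate tables, so in a difference common to all subclones clone and table cannot be told apart.

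**Figure D4:**
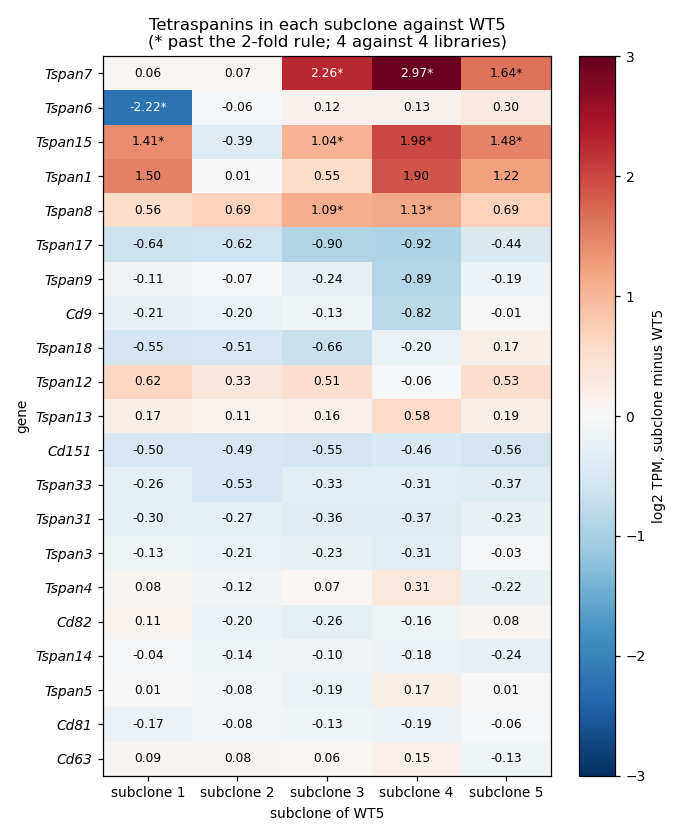
Difference in log2 TPM, subclone minus WT5, for 21 tetraspanins in 5 subclones, with the value in each cell and an asterisk where the 2-fold rule was passed. Tspan7 in subclone 4 (2.97) is the highest value and Tspan6 in subclone 1 (-2.22) the lowest.

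Tspan15 was higher than in WT5 in 4 subclones and lower in the other. It was at 4.05, 3.68, 3.55 and 4.12 TPM in subclone 1, and at 1.18, 1.11, 1.1 and 1.03 TPM in subclone 2. In subclones 3 and 4 it was at 3.0, 2.81, 2.92 and 3.19 TPM and at 6.12, 5.87, 5.56 and 5.26 TPM, and in subclone 5 at 3.79, 4.12, 3.73 and 4.53 TPM. Against WT5 libraries of 1.31 to 1.66 TPM, none of the subclones overlapped, and all stayed below the 9.49 to 11.35 TPM of polyclonal WT cells. The log2 differences from WT5 were 1.41, -0.39, 1.04, 1.98 and 1.48 for subclones 1 to 5 in order, with SEs of 0.08 to 0.10 and adjusted p from 5.19e-06 to 0.00811. In subclone 3 the difference was 0.99 without WT5 replicate 4, just under 2-fold. Subclone 2 was the lowest of all lines for this gene.

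Tspan7 followed a partly similar order. It was at 0.23, 0.17, 0.19 and 0.06 TPM in subclone 1, and at 0.21, 0.15, 0.12 and 0.12 TPM in subclone 2, both overlapping WT5. In subclone 3 it was at 0.53, 0.69, 0.62 and 0.87 TPM, in subclone 4 at 0.69, 1.15, 1.41 and 1.28 TPM and in subclone 5 at 0.22, 0.66, 0.52 and 0.47 TPM. The last 3 subclones lay above all WT5 libraries, and subclone 4 overlapped the 1.23 to 1.75 TPM of polyclonal WT cells. Differences from WT5 were 2.26 ± 0.15 (SE) in subclone 3, 2.97 ± 0.22 in subclone 4 and 1.64 ± 0.31 in subclone 5, with adjusted p of 8.15e-05, 4.17e-05 and 0.00588. The call in subclone 5 was lost without any 1 of 7 of the 8 libraries, at adjusted p of up to 0.0202, and with the replicate number as a block, at 0.0190. It was kept only without subclone 5 replicate 1, the library at 0.22 TPM. Values this low fall under 2-fold in all 3 subclones when 1 TPM is added before the logarithm.

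Tspan6 set subclone 1 apart. Its level was 4.29, 4.68, 4.55 and 4.44 TPM there, against 20.23 to 22.2 TPM in WT5. The other 4 subclones lay between 17.94 and 30.07 TPM, so all 4 libraries of subclone 1 were below the remaining 24. The log2 difference from WT5 was -2.22 ± 0.05 (SE; adjusted p = 9.55e-07), beside the difference of -1.89 between WT5 and polyclonal WT cells. Of the 16 genes tested within 2 Mb, the median in subclone 1 against the other 4 subclones was -0.09, and 10 were lower. The lowest was Zmat1 at -4.46, whose level was 0.02 to 0.08 TPM in subclone 1, 0.16 to 0.23 TPM in subclone 4 and 1.36 to 2.01 TPM in subclones 2, 3 and 5. Zmat1 starts 1076.6 kb from the midpoint of Tspan6, which lies at chrX:133891068-133898429.

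Tspan8, already high in WT5, was higher still in each subclone. It was at 222.65, 235.33, 244.21 and 226.38 TPM in subclone 1, and at 252.17, 250.51, 255.07 and 259.09 TPM in subclone 2. In subclones 3, 4 and 5 it was at 309.13, 369.36, 370.05 and 297.82 TPM, at 348.97, 344.94, 342.84 and 341.27 TPM and at 268.5, 231.81, 259.55 and 257.44 TPM. All 20 libraries were above the highest WT5 library of 165.69 TPM. The log2 differences ran from 0.56 in subclone 1 to 1.13 in subclone 4, where as in subclone 3 (1.09) the 2-fold rule was passed, and the adjusted p from 3.96e-06 to 0.000486. In subclone 4, where Cd9 was at 153.83 to 175.05 TPM, Tspan8 was the second most abundant member, without overlap between their values. On average Tspan8 was also above Cd9 in subclone 3 (336.59 against 260.30 TPM) and subclone 2 (254.21 against 246.21 TPM), with overlap. In subclones 1 and 5, Cd9 was the higher on average.

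Tspan18 and Tspan1 lay nearer to WT5 than to polyclonal WT cells in every subclone. In the subclones Tspan18 ranged from 6.43 to 13.94 TPM, against at most 0.05 TPM in polyclonal WT cells, with log2 differences from WT5 of -0.66 to 0.17. Tspan1 ranged from 0.02 to 0.91 TPM, and the subclone averages differed from WT5 by 0.01 to 1.90 on the log2 scale without passing the 2-fold rule. Cd151, by contrast, was lower than WT5 in all 5 subclones, with log2 differences of -0.56 to -0.46, with adjusted p of 8.49e-05 to 0.00172 and no overlap, at 109.95 to 140.92 TPM against 176.13 to 186.46 TPM. Tspan31 and Tspan33 were likewise lower in all 5 subclones without overlap. Tspan31 was at 82.75 to 103.36 TPM against 108.87 to 113.47 TPM, and Tspan33 at 53.65 to 74.53 TPM against 85.69 to 87.99 TPM. Tspan3 was lower on average in every subclone, with overlap in subclone 5. For these members, as for Tspan8, the direction was the same in every subclone, and clones and tables cannot be told apart. Lack of overlap with WT5, here and for the members above, was not set against its share over all genes. Differences from WT5 were common, with an unadjusted limma p below 0.05 on the z-score scale for 46.2% to 59.0% of all genes. Tspan12 was higher in subclones 1, 2, 3 and 5 by 0.33 to 0.62, and in subclone 4 the difference was -0.06.

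A comparison among the 20 subclone libraries avoids both the WT5 libraries and the separate tables. By a moderated F-test over the 5 subclones, 3 of 21 members passed with an adjusted p below 0.01 and more than 2-fold between the highest and lowest subclone, against 5.40% of 14031 genes. These were Tspan7, with a log2 range of 2.91 between subclones 4 and 1, Tspan6, with 2.52 between subclones 5 and 1, and Tspan15, with 2.37 between subclones 4 and 2. By the adjusted p alone, 11 of 21 members passed, against 17.8% of all genes. The other 8 were Tspan18, Tspan9, Cd9, Tspan12, Tspan8, Tspan4, Tspan13 and Cd82, with ranges from 0.83 down to 0.37. The median range over members was 0.48, against 0.29 over all genes. Cd151, Cd81 and Tspan31 had the smallest ranges, 0.09 to 0.14.

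Each subclone was then set against the mean of the other 4, a comparison added after the values had been seen. With the 2-fold rule, 2 members passed in subclone 1, against 0.891% of all genes, 2 in subclone 2 against 0.898%, and 2 in subclone 4 against 1.79%. No member passed in subclone 3, against 0.891%, or in subclone 5, against 1.36%, where 9 and 11 of the 21 members had an unadjusted limma p below 0.05, against 14.1% and 29.3% of all genes. Subclone 1 was lower for Tspan6 (-2.34 ± 0.08, SE) and Tspan7 (-1.67 ± 0.31), and subclone 2 for Tspan15 (-1.87 ± 0.06) and Tspan7 (-1.67 ± 0.31). Subclone 4 was higher for Tspan15 (1.09 ± 0.06) and Tspan7 (1.97 ± 0.31). Adjusted p lay between 1.83e-12 and 0.00220. The Tspan7 call in subclone 1 was lost without its replicate 4, at 0.06 TPM, with an adjusted p of 0.0118, and that in subclone 2 without 2 of the 20 libraries, with up to 0.0140.

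Subclone 4 differed for more of the family than the 2-fold rule shows, as did other subclones. In subclone 5, where no member passed that rule, Tspan4, Cd82, Tspan18, Tspan12, Cd9, Tspan15 and Tspan6 had a limma adjusted p below 0.01. By the adjusted p alone, 10 of 21 members differed in subclone 4 from the other subclones, against 12.6% of all genes. Its 4 libraries lay outside the range of the other 16 for 6 members, against 6.88% of all genes. Cd9 was at 175.05, 153.83, 156.18 and 157.68 TPM in subclone 4 and at 220.24 to 312.37 TPM in the other subclones. Tspan9, known from platelets, was at 36.22, 41.95, 46.74 and 41.37 TPM, against 56.21 to 81.31 TPM. Tspan12 was at 44.01, 50.61, 45.87 and 47.6 TPM, against 57.65 to 78.37 TPM. All 3 genes lie on chromosome 6 and were lower in each library of subclone 4 than in any library of the other subclones.

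The two-sided tests gave log2 differences of -0.68 ± 0.08 (SE) for Cd9, -0.73 ± 0.08 for Tspan9 and -0.56 ± 0.05 for Tspan12, with adjusted p of 6.03e-06, 2.21e-06 and 8.09e-08. Higher in subclone 4, also without overlap, were Tspan13, at 52.24, 51.84, 54.0 and 51.66 TPM against 34.8 to 43.06 TPM, and Tspan4, at 120.62, 113.06, 112.1 and 117.02 TPM against 74.98 to 103.49 TPM. Their differences were 0.43 ± 0.05 and 0.36 ± 0.04 (SE), with adjusted p of 3.14e-06 and 7.04e-06. Tspan15 was the remaining member outside the range of the others. None of these 6 calls was lost when any of the 20 libraries was left out, whereas the call of Tspan5 (0.23) was lost without any of 14.

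**Figure D5:**
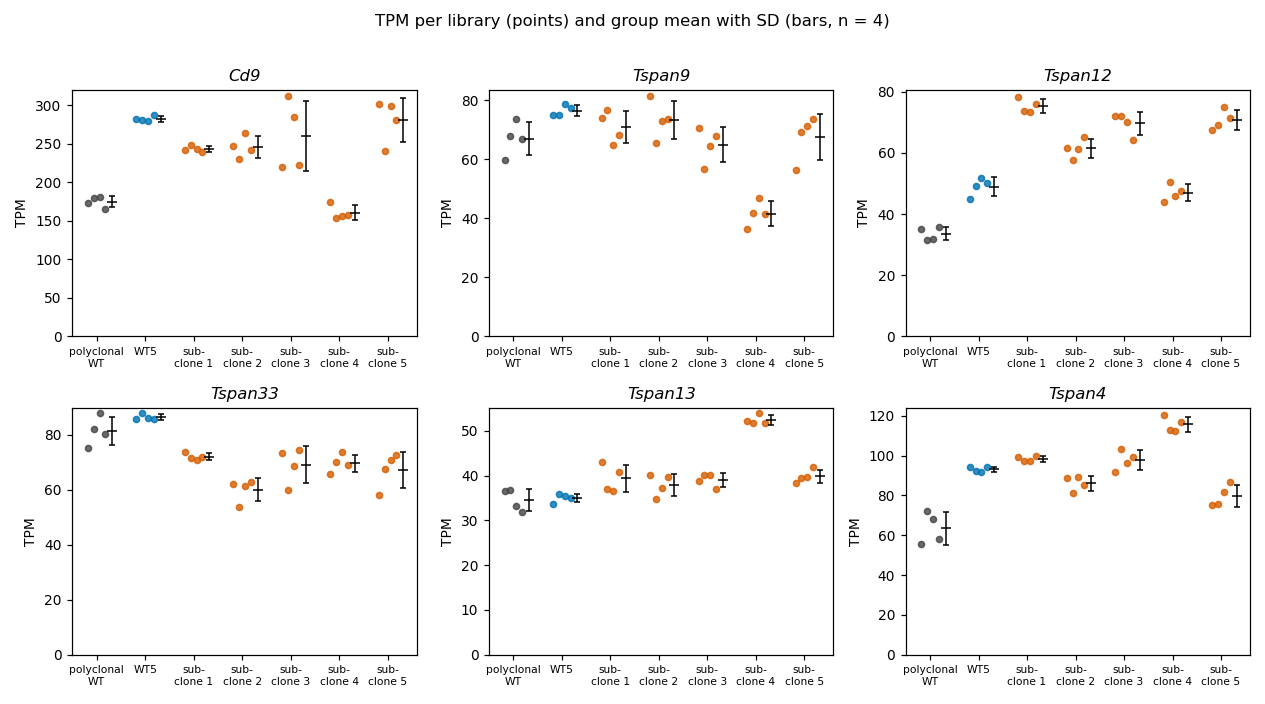
TPM in each library, on axes that start at 0, for 6 members by line, with the group mean and SD (n = 4) beside the points. Subclone 4 lies below the other subclones for Cd9, Tspan9 and Tspan12 and above them for Tspan13 and Tspan4, whereas for Tspan33 it lies among them.

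Genes near some of these members differed in the same direction. In subclone 4, the median log2 difference over 662 genes of chromosome 6 was -0.32, the lowest of 20 chromosomes, and that over 472 genes of chromosome 12 was 0.38, the highest. The median of chromosome 12 in subclone 5, one of the other 4, was -0.36, the lowest there, and all 5 genes tested around Tspan13 were lower in that subclone, with a median of -0.40, while Tspan13 differed by -0.07. Tspan13 is the member on chromosome 12, and Cd9, Tspan9, Tspan12 and Tspan33 are those tested on chromosome 6. Within 2 Mb, 42 of 44 genes around Cd9 were lower, with a median of -0.49, and 16 of 22 around Tspan9, with a median of -0.57. These windows share some genes, Ndufa9 and Tigar among them. Gm28809 (-1.03), counted around Cd9, overlaps Cd9 itself on the opposite strand. Around Tspan33, at chr6:29694222-29718559, the median of 36 genes was 0.02 and Tspan33 differed by 0.06. Around Tspan12, at chr6:21771395-21852515, only 6 genes were tested, 3 of them lower. Their median was -0.03 and their range -0.47 to 0.14, while Tspan12 differed by -0.56. Whether position has a part in these differences was not tested. Tspan4, Tspan15, Tspan7 and Tspan8, with neighbour medians of 0.00, 0.01, 0.07 and 0.00, also differed by more than those medians.

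Of the 52 partner genes, 1, 2, 3, 3 and 0 passed the 2-fold rule against WT5 in subclones 1 to 5 in order, against 3.17%, 2.69%, 3.61%, 5.14% and 3.45% of all genes. In subclone 5, 32 of them had an unadjusted limma p below 0.05, against 45.4% of all genes. The fibronectin receptor chain Itga5 was lower than in WT5 in subclones 1 to 4, with log2 differences of -1.47 to -1.07, and averaged 9.01 TPM in WT5 against 3.24 to 4.29 TPM there. Itga2 was lower in subclone 2 (-1.02), Itga7 and Hbegf in subclone 3 (-1.35 and -1.17), and Igsf3 and Efnb1 in subclone 4 (-1.37 and -1.19). No partner passed as higher, and the integrin list had a negative median in every subclone, from -0.61 to -0.28. For such a shared direction, clone and table cannot be told apart. Among the subclones, Itga2, Cd44, Efnb1, Rab27b and the uroplakin Upk1a passed with ranges of 1.04 to 1.16, 5 of 52 genes against 5.40% of all genes. Cd44 averaged 10.7 TPM in subclone 4, where Cd9 was lowest as well, and 14.96 to 23.6 TPM in the other subclones. Adam10, the cargo of the TspanC8 members, stayed at 38.1 to 43.8 TPM on average while Tspan15 spanned 1.11 to 5.70 TPM.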

How the data were processed

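RNA of 28 libraries of mIMCD-3 cells was analysed in 7 groups of 4. As deposited by the authors, values are TPM per gene. Per the labels and the methods, base calls came from CASAVA 1.8, STAR 2.7.3a aligned the reads to GRCm38 under annotation of Ensembl 81, and genes were quantified with RSEM 1.3.1. TPM keeps no depth, so no counting error can be given and no count model was used. One table holds polyclonal WT cells and WT5, the other the subclones, and both were joined by gene identifier.

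log2(TPM) without a pseudocount, over genes above 0 in all libraries of a comparison, was tested with limma 3.58.1 in R 4.3.3, unscaled and as z-scores within each library, with Benjamini-Hochberg adjustment over all genes tested and a limit of 0.01. The unequal-variance test of the study was an alternative, as were pseudocounts of 0.1 and 1, filters, left-out libraries, centring and a replicate block. The script was tested on simulated data. Replicate numbers did not pair libraries. A marker on the leukocyte list is not reported here by itself. Every member is named, and members passing a rule in any comparison are given per library. Members, partner lists and rules were chosen with earlier results of these data known.

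Gene positions and transcripts are from GENCODE release M21 (GRCm38), matching 45143 of 45706 identifiers, and promoters from RefSeq (GRCm38.p6). Figures and sums were made with Python 3.11.15, pandas 2.3.3 and matplotlib 3.10.9.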

Additional observations from a re-analysis of the deposited data

Results flagged for a closer look

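Single libraries stood apart from the other 3 of their group for 8 of 161 combinations of member and group. For independent combinations, chance alone gives about 1 in 20, or 8.05. Members share libraries, so the combinations are not independent and that figure is only a rough guide. In subclone 2, replicate 2 was low for Cd151 (112.24 TPM), Tspan31 (86.09 TPM) and Tspan33 (53.65 TPM). In subclone 3, replicate 1 was high for Tspan5 (94.05 TPM), replicate 2 low for Tspan14 (42.71 TPM), replicate 3 high for Tspan31 (90.98 TPM) and replicate 4 high for Tspan17 (1.78 TPM). Polyclonal replicate 1 was low for Cd82 (65.15 TPM), and without any single library the difference of Cd82 between WT5 and polyclonal WT cells stayed within 1.07 to 1.14 on the log2 scale.

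For 11 of 21 members, against 17.8% of 14031 genes, the subclones differed from each other by limma's moderated F-test at an adjusted p below 0.01. Their log2 ranges between the highest and the lowest subclone were 2.91 for Tspan7, 2.52 for Tspan6, 2.37 for Tspan15, 0.83 for Tspan18, 0.82 for Tspan9, 0.80 for Cd9, 0.68 for Tspan12, 0.57 for Tspan8, 0.54 for Tspan4, 0.47 for Tspan13 and 0.37 for Cd82.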

How the results depend on the processing

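Of 223 counts of members under an alternative, 207 stayed within 1.5 times the main count, and of 464 values of single members 431 kept their direction and their side of the threshold, 33 fell short of it and 0 changed direction. With genes above 0 in at least 1 library plus a pseudocount of 0.1, 2 members (Tspan1 and Tspan18) passed the z-score rule between WT5 and polyclonal WT cells in place of 5, with Tspan8 just under the limit at 0.996. With genes of a mean of at least 1 TPM, 1 member, Tspan6, passed it in subclone 1. A pseudocount of 1 left 1 member past the 2-fold rule in each of subclones 1, 3 and 5, since it shrinks differences of low genes. In subclone 5 the count was also 1 with the unequal-variance test, with genes of a mean of at least 1 TPM, with genes above 0 in at least 1 library plus a pseudocount of 0.1, and with the replicate block, and 1 to 2 without single libraries, because Tspan7 was lost in each case except for the mean filter, which leaves it out. The replicate block changed no other call. Numbers did not pair the libraries: between WT5 and the other lines, deviations of same-numbered libraries correlated at -0.05 to 0.08, and between subclones at -0.33 to 0.15. TPM keeps no depth, so levels under about 1 TPM, those of Tspan1, Tspan7 and Tspan18 in some lines, have an unknown counting error.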
